A study of Mus musculus with 4 samples.

Results

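The Cyp2c genes of mouse chromosome 19 that are known or listed as arachidonic and linoleic acid epoxygenases were examined in the livers of HFD-fed ADAR2 KO mice. A gene was a member when its name in the count table was one of Cyp2c29, Cyp2c37, Cyp2c38, Cyp2c39, Cyp2c40, Cyp2c44, Cyp2c50, Cyp2c54, Cyp2c55 and Cyp2c69, and 9 of these 10 names were found among 25655 genes. The name Cyp2c44 is not in the table, and RefSeq gives it as a synonym of Cyp2c23, which the table holds and which is described here among the other Cyp2c genes. The family was picked because Cyp2c54, Cyp2c40 and Cyp2c69 were higher in HFD-KO than in HFD-WT livers. The difference between genotypes is therefore given for the members as a description, without a test. The SE beside a log2 fold change was worked back from edgeR's F statistic. It therefore carries that statistic and is not to be read as a test of the members.

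Cytochromes P450 of the CYP2C family sit in the endoplasmic reticulum of hepatocytes, take electrons from the reductase Por, and add oxygen to drugs, steroids and polyunsaturated fatty acids. From arachidonic acid they make epoxyeicosatrienoic acids and from linoleic acid the corresponding epoxides, which the soluble epoxide hydrolase Ephx2 opens to diols. In liver their transcription is known to depend on HNF4A and on the xenobiotic receptors CAR (Nr1i3) and PXR (Nr1i2), and several members differ between the sexes.

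Liver RNA of 2 HFD-WT and 2 HFD-KO libraries was compared, all from male mice given the high-fat diet for 12 weeks from 5 weeks of age. HFD-WT mice were ADAR2+/+ and HFD-KO mice ADAR2-/- in every cell of the body, and the GluR-B R/R allele and the B6129S background were common to both. The study gives more mice per group for its RNA-seq comparison than there are libraries. Whether a library holds the RNA of 1 mouse or of a pool is not given in the sources used here, so p-values measure only the spread between these libraries. With 2 libraries against 2, the smallest exact permutation p for a single value is 0.333, and edgeR borrows variance information across genes.

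The total count was between 24480798 and 28691330 per library, and 3 reads, taken as the smallest detectable amount, correspond to 0.104 to 0.126 CPM (reads scaled to the TMM-adjusted library size). Intervals and this floor cover counting error only. Adarb1, which encodes ADAR2, had 15.7 and 19.8 CPM in HFD-WT against 6.23 and 9.54 CPM in HFD-KO livers (log2 fold change -1.17, SE 0.20, adjusted p = 0.159 by the quasi-likelihood test of edgeR, with Benjamini-Hochberg correction over all genes tested), so reads were counted on it in both HFD-KO libraries. Its adjusted p was 0.000227 without HFD-KO replicate 1 and 3.11e-07 without HFD-KO replicate 2 in the same edgeR test, and over all alternatives it ranged from 3.11e-07 to 0.971. All 4 libraries had reads on the 4 Y-linked genes Ddx3y, Eif2s3y, Kdm5d and Uty, as in male animals. All 8 hepatocyte markers had a log2 fold change above 0, against 51.6% of all genes, none with an unadjusted p under 0.05 in edgeR's test. Their summed level was 94200 and 96700 CPM in HFD-WT against 93900 and 119000 CPM in HFD-KO, so only HFD-KO replicate 2 exceeded the HFD-WT libraries. Over all genes tested, 4.25% had an unadjusted p under 0.05 with higher and 4.73% with lower values in HFD-KO. Of the Kupffer cell markers, 5 of 8 had an unadjusted p under 0.05 with lower values in HFD-KO (summed level 240 and 309 CPM in HFD-WT against 194 and 190 CPM in HFD-KO), and so had 4 of 7 stellate cell markers (348 and 387 against 303 and 224 CPM). Of the B and plasma cell markers, 3 of 6 had an unadjusted p under 0.05 with higher values, and their sum stood out in HFD-KO replicate 1, at 122 CPM against at most 17.4 CPM in the other libraries, and of the red blood cell markers 3 of 5 were higher in this sense, with the highest sum in HFD-KO replicate 2, at 1150 CPM against 600 to 810 CPM. None of these markers was at 0 in all libraries. Their part in the values of the Cyp2c genes was not tested, and in bulk liver fewer cells of a type and less RNA per cell cannot be told apart.

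The table lists 15 Cyp2c genes. Of these, 14 lie side by side within 1180315 bases of chromosome 19, from 38995463 to 40175777 on GRCm39, and Cyp2c23 lies 3817683 bases further on. The genes are near copies of each other, which matters for what a read can tell. Coding sequences were compared from GENCODE M21 transcripts (GRCm38). Cyp2c50 was 95.2% identical to Cyp2c54 and 96.1% to Cyp2c37, Cyp2c38 was 94.2% identical to Cyp2c39, and Cyp2c67 was 97.7% identical to Cyp2c69. Cyp2c23 stood apart, with 58.5% to 66.1% identity to the other Cyp2c genes.

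The stretch of 60 coding bases at which Cyp2c54 and its relatives differ most shows what separates the member with the clearest difference between genotypes from its neighbours. It spans coding positions 808 to 867 in each of the 4 genes, and capitals mark the 31 positions that are not the same in all of them.
Cyp2c54: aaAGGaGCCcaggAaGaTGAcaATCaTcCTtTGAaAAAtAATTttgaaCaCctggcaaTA
Cyp2c50: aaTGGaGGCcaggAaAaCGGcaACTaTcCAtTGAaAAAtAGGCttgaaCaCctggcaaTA
Cyp2c37: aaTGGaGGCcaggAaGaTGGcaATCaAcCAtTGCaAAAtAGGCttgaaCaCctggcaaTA
Cyp2c29: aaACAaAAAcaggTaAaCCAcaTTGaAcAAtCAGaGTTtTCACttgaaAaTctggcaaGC
Within it Cyp2c54 differed from Cyp2c50 at 11 bases, from Cyp2c37 at 9 and from Cyp2c29 at 28. For the Cyp2c40 group, the most different 60 bases, at coding positions 351 to 410 of Cyp2c40 and 264 to 323 of the other genes, held only 8 variable positions, again in capitals.
Cyp2c40: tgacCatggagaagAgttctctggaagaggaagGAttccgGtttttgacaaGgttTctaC
Cyp2c69: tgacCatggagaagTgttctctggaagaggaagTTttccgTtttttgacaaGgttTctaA
Cyp2c67: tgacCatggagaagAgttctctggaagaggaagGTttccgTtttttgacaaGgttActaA
Cyp2c68: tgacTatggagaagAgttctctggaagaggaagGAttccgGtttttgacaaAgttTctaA
Cyp2c40 differed here from Cyp2c69 at 5 bases, from Cyp2c67 at 4 and from Cyp2c68 at 3.

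The consequence for counting was measured by looking for each 100-base window of a transcript in all other GENCODE transcripts. Of the windows of Cyp2c40, 752 of 1704 (44.131%) also occurred in Cyp2c67, Cyp2c68 or Cyp2c69, and of those of Cyp2c69, 561 of 1547 (36.264%) occurred in Cyp2c40, Cyp2c67 or Cyp2c68. For Cyp2c50, Cyp2c54 and Cyp2c37 the shares were 9.399%, 7.587% and 4.696%, all within this group of 3 genes. Cyp2c29, Cyp2c38, Cyp2c39 and Cyp2c55 shared no window with another transcript. How the authors treated reads that align to several places is not given in the sources used here, so the counts of Cyp2c40 and Cyp2c69 are uncertain in their split with Cyp2c67 and Cyp2c68.

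**Figure D1:**
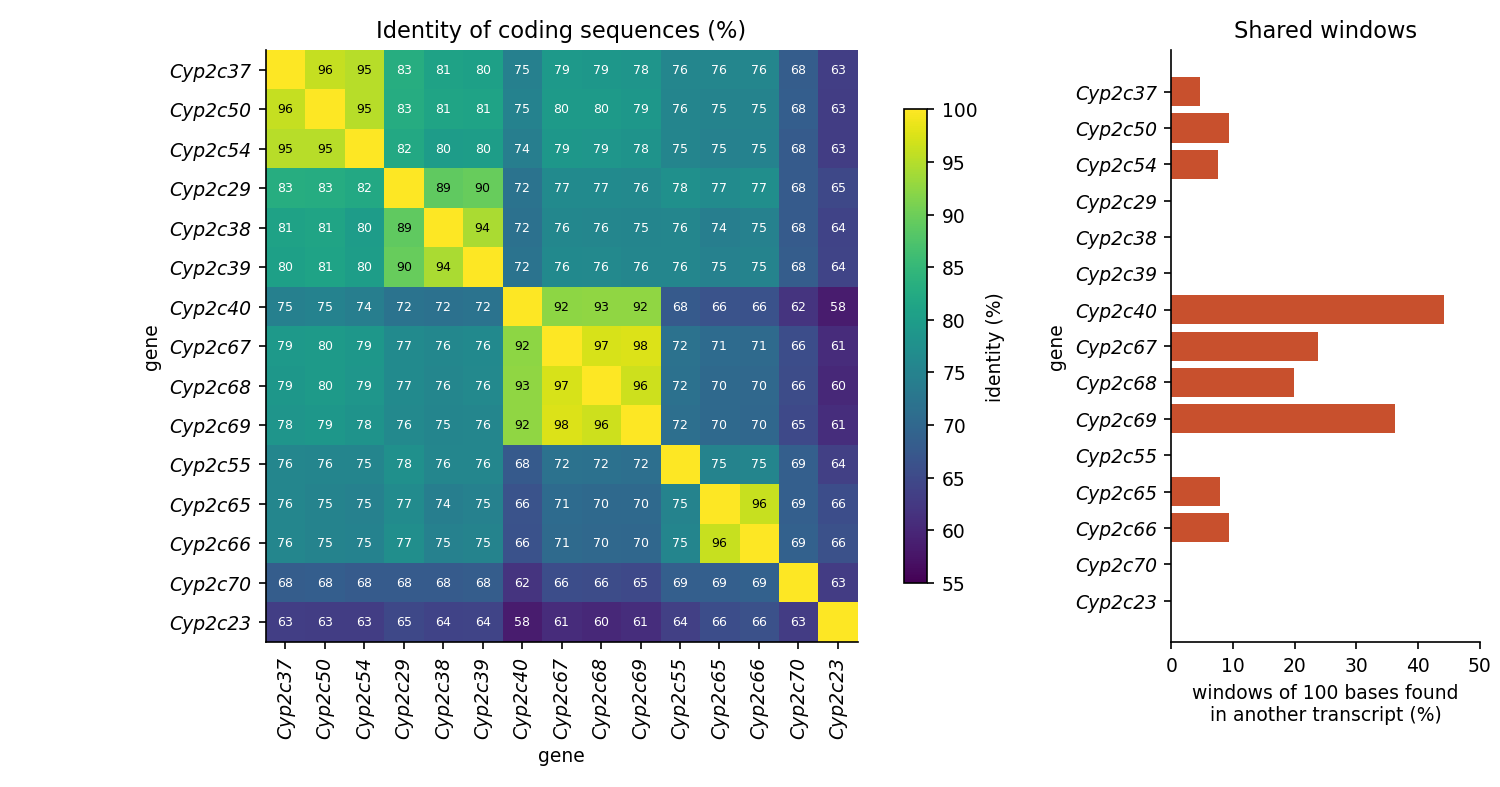
Left, identity of the coding sequences of the 15 Cyp2c genes in percent, with genes on both axes. Right, share of the 100-base windows of each transcript found in another transcript. Cyp2c37, Cyp2c50 and Cyp2c54 form one block, Cyp2c29, Cyp2c38 and Cyp2c39 another, and Cyp2c40, Cyp2c67, Cyp2c68 and Cyp2c69 the block with the most shared windows, 44.131% for Cyp2c40.

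Levels of different genes were compared per length, in TPM, the counts divided by exon length and scaled to the same sum in each library. By the mean over the 4 libraries the order of the members was Cyp2c50, Cyp2c29, Cyp2c37, Cyp2c54, Cyp2c38, Cyp2c39, Cyp2c40, Cyp2c69 and Cyp2c55. Cyp2c50 led with 400.8 ± 95.7 TPM (SD, n = 4), above Cyp2c29 with 254.7 ± 44.6 TPM in all 4 libraries and without overlap of their ranges. This lead depends on the exon lengths used, 3312 bases for Cyp2c29 and 1972 for Cyp2c50. The GENCODE transcripts compared above have 1783 and 1812 bases, and with a shorter length the TPM of Cyp2c29 would be higher. Cyp2c37 followed at 244.3 ± 58.7 TPM, and its range overlapped that of Cyp2c29. Cyp2c54 (88.7 ± 45.8 TPM) and Cyp2c38 (69.2 ± 3.46 TPM) overlapped, since Cyp2c54 was below Cyp2c38 in both HFD-WT libraries and above it in both HFD-KO libraries. The rest of the family was scarce. Cyp2c39 had 6.89 ± 0.995 TPM, and no library of it reached the lowest of Cyp2c38. Cyp2c40, Cyp2c69 and Cyp2c55 had means of 2.98, 1.64 and 0.956 TPM, and their ranges overlapped. The 4 Cyp2c genes with reads outside the 9 members lay between Cyp2c37 and Cyp2c54, with means of 179.1 TPM for Cyp2c67, 147.5 TPM for Cyp2c68, 119.4 TPM for Cyp2c70 and 111.9 TPM for Cyp2c23. Cyp2c65 and Cyp2c66 had 0 reads in every library.

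**Figure D2:**
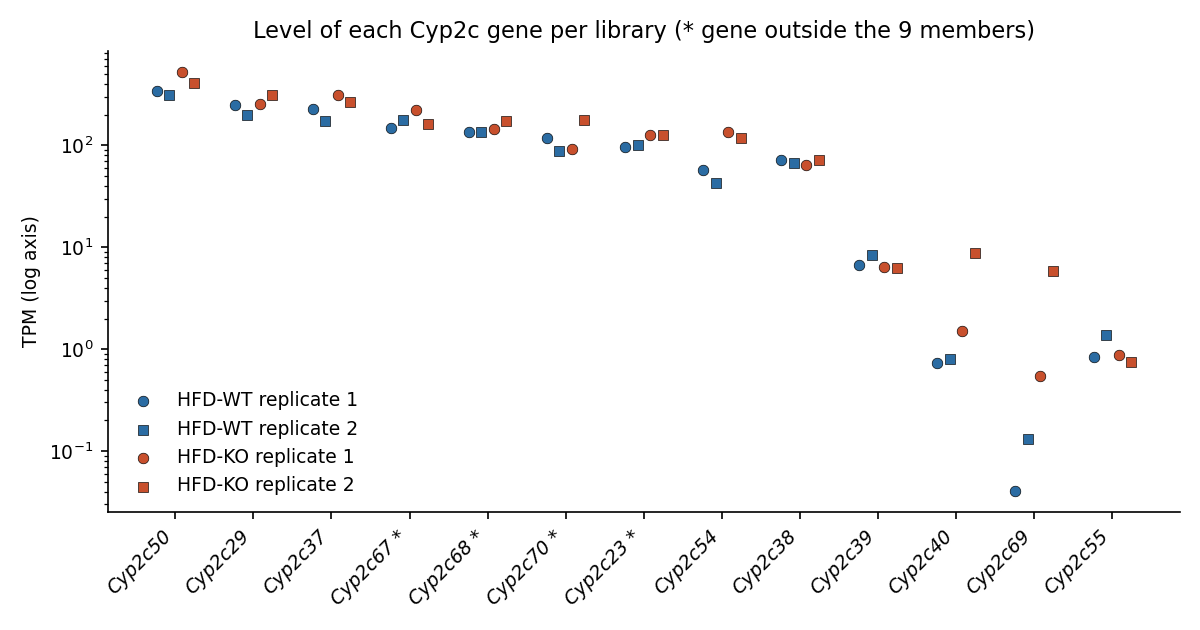
TPM of the 13 Cyp2c genes with reads in each of the 4 libraries, on a log axis, ordered by the mean over libraries, and an asterisk marks genes outside the 9 members. With the exon lengths used, Cyp2c50 leads at a mean of 400.8 TPM, and the points of HFD-KO replicate 2 for Cyp2c40 and Cyp2c69 stand far above those of the other 3 libraries.

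All 9 members passed edgeR's filter on low counts, which here asked for at least 0.374 CPM (per total count) in 2 libraries. In 8 of them libraries of both groups were over this level, while Cyp2c69 passed only through its 2 HFD-KO libraries. Both HFD-KO libraries were above both HFD-WT libraries for 6 members (Cyp2c29, Cyp2c37, Cyp2c40, Cyp2c50, Cyp2c54 and Cyp2c69), both were below for Cyp2c39, and the groups overlapped for Cyp2c38 and Cyp2c55. Over the 12967 genes tested, 20.5% had both HFD-KO libraries above and 20.4% had both below. The log2 fold change was above 0 for 7 members and below 0 for 2, against 51.6% of all genes above 0, and it was at least 1 for the 3 members that led to the choice of the family, against 0.918% of all genes. Its median was 0.583 over the members and 0.00679 over all genes tested. Because the members were chosen on this comparison, nothing is read from these shares.

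Cyp2c54, an epoxygenase of arachidonic and linoleic acid, is ENSMUSG00000067225 on the minus strand of chromosome 19 from 40026384 to 40062271 (GRCm39). Its level was 51.5 and 37.5 CPM in HFD-WT against 128.8 and 107.7 CPM in HFD-KO livers, from 1491 and 1033 and from 3391 and 2572 reads. Both HFD-KO libraries lay far above both HFD-WT libraries. The fit gave a log2 fold change of 1.41 (SE 0.158), with a range of 1.20 to 1.65 over the fits that omit 1 library. Cyp2c54 took 5.96% and 5.30% of the summed TPM of the members in HFD-WT and 10.5% and 9.77% in HFD-KO livers.

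Cyp2c50 and Cyp2c37, the closest relatives of Cyp2c54, had smaller differences. Cyp2c50, another epoxygenase of both fatty acids, had 316.1 and 280.1 CPM in HFD-WT against 506.6 and 386.2 CPM in HFD-KO livers (log2 fold change 0.58, SE 0.139). Cyp2c37, known to hydroxylate arachidonic acid and to respond to CAR, had 207.5 and 154.5 CPM in HFD-WT against 296.8 and 251.1 CPM in HFD-KO livers (log2 fold change 0.60, SE 0.150). In both genes the groups did not overlap, and HFD-KO replicate 1 was the highest library. The summed level of the 3 genes, which depends little on how reads are split among them, was 628.6 and 528.9 TPM in HFD-WT and 976.2 and 801.5 TPM in HFD-KO livers, a ratio of means of 1.54.

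Cyp2c29, Cyp2c38 and Cyp2c39 form the second group by sequence. Cyp2c29, an epoxygenase induced by phenobarbital through CAR, had 387.2 and 301.0 CPM in HFD-WT against 412.0 and 484.4 CPM in HFD-KO livers (log2 fold change 0.38, SE 0.139). The lowest HFD-KO library was only slightly above the highest HFD-WT library. Cyp2c38, an epoxygenase of arachidonic acid, had 103.5 and 95.3 CPM in HFD-WT against 97.8 and 105.9 CPM in HFD-KO livers, and its log2 fold change of 0.03 (SE 0.087) was the one closest to 0 in the family. The 4 libraries were interleaved, and the sign turned with library size alone as scaling (-0.01) and without HFD-WT replicate 2 or HFD-KO replicate 2 (-0.02). Cyp2c39, which is also known to hydroxylate retinoic acid, had 6.041 and 7.414 CPM in HFD-WT against 6.037 and 5.734 CPM in HFD-KO livers (log2 fold change -0.19, SE 0.165). Its groups were separated only by the difference between 6.041 and 6.037 CPM. Summed, the 3 genes had 330.3 and 276.8 TPM in HFD-WT and 327.8 and 388.1 TPM in HFD-KO livers, and the groups overlapped.

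Cyp2c40 and Cyp2c69 behaved differently from the abundant members, since 1 library held most of their reads. Both are known as genes with higher expression in female than in male mouse liver. Cyp2c40 (ENSMUSG00000025004, minus strand, 39755515 to 39801258) had 20 reads in each HFD-WT library and 39 and 202 reads in the HFD-KO libraries, or 0.690 and 0.727 CPM against 1.48 and 8.46 CPM. HFD-KO replicate 2 was thus 5.71 times HFD-KO replicate 1. Cyp2c69 (ENSMUSG00000092008, minus strand, 39831258 to 39875243) had 1 and 3 reads in HFD-WT and 13 and 122 reads in HFD-KO livers, and HFD-KO replicate 2 was 10.3 times HFD-KO replicate 1. Both HFD-WT libraries were thus at or under the floor of 3 reads for Cyp2c69.

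The log2 fold change of Cyp2c40 was 2.79 (SE 0.766), and 1.06 without HFD-KO replicate 2. That of Cyp2c69 was 5.20 (SE 1.31), and 2.72 without HFD-KO replicate 2. Cyp2c69 passed the filter on low counts through its HFD-KO libraries alone, so its fold change had to differ from 0 and depends on how few reads the HFD-WT libraries held. Its pooled reads gave a ratio of HFD-KO to HFD-WT of 38.0 with an exact binomial 95% counting interval of 14.5 to 141.0, which describes the precision of so few reads, leaves out the spread between libraries and is no test of genotype. The near copies Cyp2c67 and Cyp2c68, which share windows with both genes, were at much higher levels: summed, they had 286.6 and 311.4 TPM in HFD-WT and 370.8 and 337.4 TPM in HFD-KO livers, while Cyp2c40 and Cyp2c69 together had 0.777 and 0.925 TPM in HFD-WT and 2.06 and 14.7 TPM in HFD-KO livers. HFD-KO replicate 2, which had the most Cyp2c40 and Cyp2c69, had less Cyp2c67 and Cyp2c68 together than HFD-KO replicate 1. The 2 copies went in opposite directions: Cyp2c67 had 225.0 TPM in HFD-KO replicate 1 and 164.2 TPM in replicate 2. Cyp2c68 had 145.7 and 173.2 TPM. Whether reads were moved between these genes by the alignment was not tested.

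HFD-KO replicate 2 also stood alone in other genes. With a limit set after the values were seen, of over 3 CPM and more than 5 times the highest other library (with 0.05 CPM added), 13 genes were high in HFD-KO replicate 2 only, among them Cyp2c40 and Cyp2c69, against 5 in HFD-KO replicate 1 and 0 in either HFD-WT library. Cux2, a transcription factor known for its high level in female liver, had 0.483 and 0.327 CPM in HFD-WT against 0.380 and 10.4 CPM in HFD-KO livers. Ffar4, a receptor for long-chain fatty acids that lies within 1000000 bases of the cluster, had 7 and 2 reads in HFD-WT and 7 and 256 reads in HFD-KO livers. The part of this library in the mean of Cyp2c40 and Cyp2c69 is given by the values without it above.

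Cyp2c55, known from the intestine and inducible through PXR and CAR, was scarce. It had 24 and 37 reads in HFD-WT and 24 and 18 reads in HFD-KO livers, or 0.828 and 1.34 CPM against 0.911 and 0.753 CPM. The groups overlapped, and its log2 fold change of -0.38 (SE 0.392) became 0.01 without HFD-WT replicate 2.

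**Figure D3:**
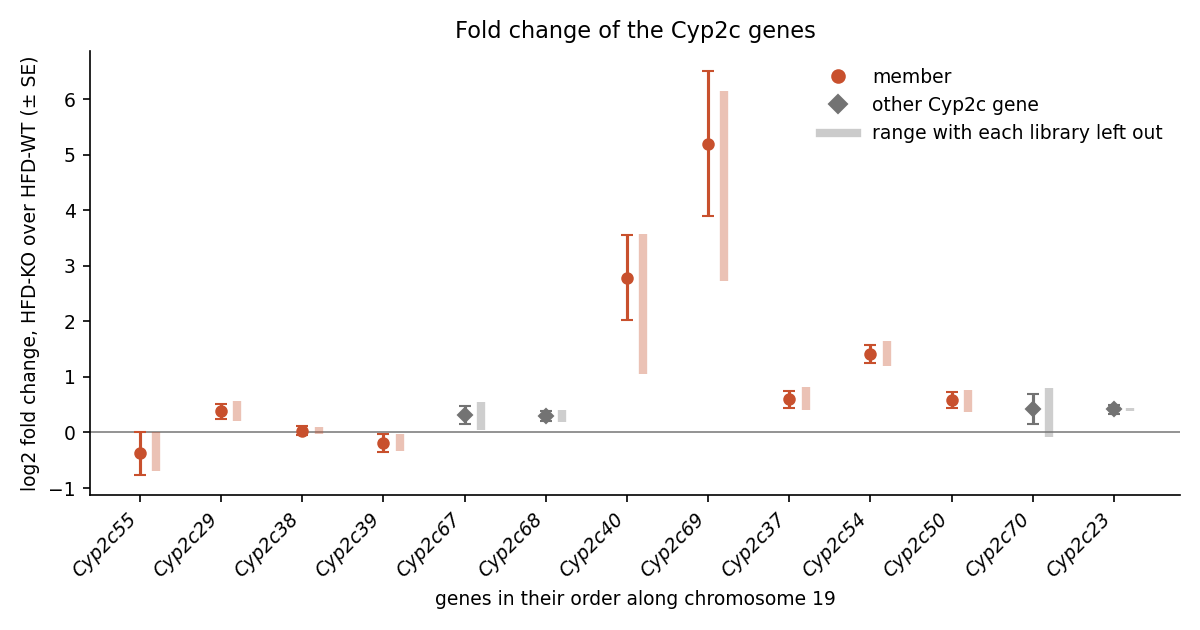
Log2 fold change of HFD-KO over HFD-WT with its SE, worked back from edgeR's F statistic, for the 13 Cyp2c genes with reads, in their order along chromosome 19. Bars beside the points span the values found when 1 library is omitted. Cyp2c40 and Cyp2c69 have the largest values and the widest bars, from 1.06 to 3.57 and from 2.72 to 6.15, while Cyp2c54 stays between 1.20 and 1.65.

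The summed level of the 9 members was 960.6 and 808.0 TPM in HFD-WT and 1307 and 1205 TPM in HFD-KO livers. Both HFD-KO libraries exceeded both HFD-WT libraries, and the ratio of means was 1.42, or 1.35 without Cyp2c54. The sum was carried by a few genes: Cyp2c50 took 34.4% to 40.5%, Cyp2c29 19.6% to 26.2% and Cyp2c37 21.4% to 23.7% of it in the 4 libraries. These shares depend on the exon lengths used, above all on that of Cyp2c29. Cyp2c40 and Cyp2c69, which had the largest fold changes, took at most 0.736% and 0.486% of the sum.

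**Figure D4:**
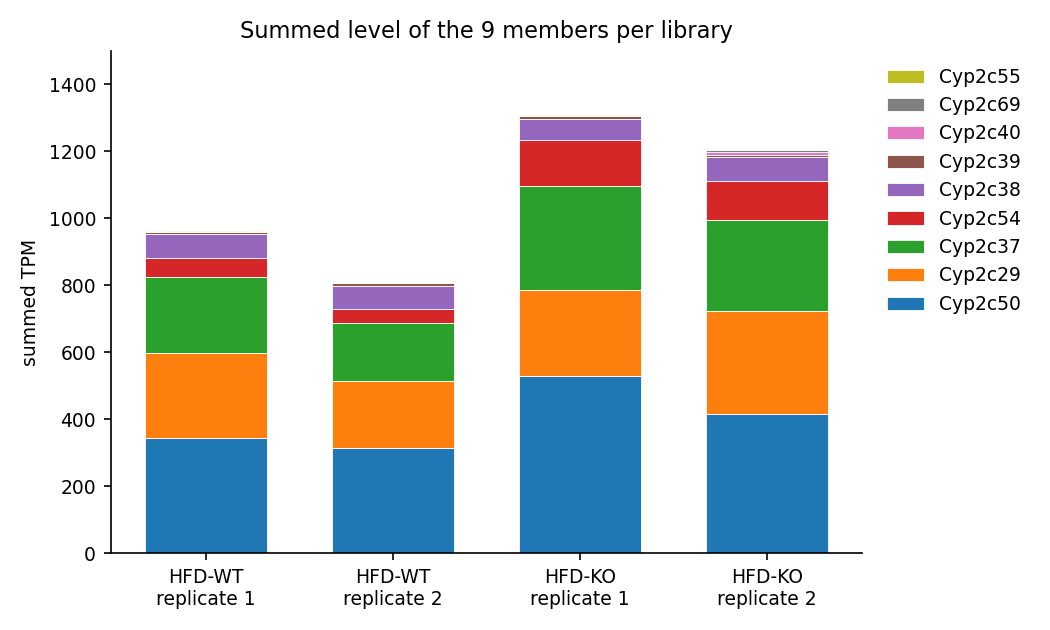
Summed TPM of the 9 members in each library, stacked by gene. The HFD-KO libraries reach 1307 and 1205 TPM against 960.6 and 808.0 TPM in HFD-WT, and Cyp2c50, Cyp2c29 and Cyp2c37 make up most of each bar.

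The Cyp2c genes outside the 9 members were tested in the fit across all genes, but these tests are not independent of the choice of the family: Cyp2c23 is the listed Cyp2c44 under its present name, Cyp2c67 and Cyp2c68 share windows with Cyp2c40 and Cyp2c69, and the genes were listed with earlier results known. None of the 4 with reads passed an adjusted p of 0.05 in edgeR's test, a threshold that 0.0771% of all genes tested passed. With an unadjusted p under 0.05, 2 of the 4 were higher and 0 lower, against 8.98% of all genes in either direction and 4.25% in the higher direction. Cyp2c23, the renal and vascular epoxygenase once named Cyp2c44, had 103.9 and 106.8 CPM in HFD-WT against 142.4 and 138.8 CPM in HFD-KO livers. Its groups were well apart and its replicates close, with a log2 fold change of 0.42 (SE 0.077, unadjusted p = 0.000848, adjusted p = 0.193 by edgeR). The adjusted p of Cyp2c23 was 0.0482 by edgeR with no filter on low counts, 0.0163 by DESeq2's Wald test and 0.269 by edgeR with the replicate block. Cyp2c68 had 118.4 and 113.4 CPM in HFD-WT against 131.9 and 152.6 CPM in HFD-KO livers (log2 fold change 0.30, SE 0.095, adjusted p = 0.428 by edgeR). Cyp2c67 had 130.6 and 150.7 CPM in HFD-WT against 204.9 and 145.6 CPM in HFD-KO livers (log2 fold change 0.32, SE 0.159, adjusted p = 0.624 by edgeR), with the second HFD-KO library inside the HFD-WT range. Cyp2c70, which makes muricholic acids in the mouse, had 102.9 and 74.8 CPM in HFD-WT against 83.9 and 154.7 CPM in HFD-KO livers (adjusted p = 0.695 by edgeR), and its log2 fold change of 0.42 became -0.08 without HFD-KO replicate 2. With each library left out in turn, the log2 fold change lay between 0.39 and 0.438 for Cyp2c23 and between 0.186 and 0.398 for Cyp2c68. It ranged more widely for Cyp2c67, from 0.0506 to 0.542, and for Cyp2c70, from -0.0842 to 0.80.

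Genes within 1000000 bases of either end of the cluster did not pass the adjusted threshold. Of 18 tested by edgeR's quasi-likelihood test, 0 had an adjusted p under 0.05, 1 had higher and 2 had lower values in HFD-KO with an unadjusted p under 0.05, against 4.25% and 4.73% of all genes, and the median log2 fold change was -0.08. Among them were Dntt (log2 fold change 0.94, unadjusted p = 0.0247 by edgeR) and Myof (-0.74, unadjusted p = 0.0114 by edgeR).

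The bases in front of the start sites were compared between the group of Cyp2c54 and the group of Cyp2c40, because members of each group are near copies and members of different groups differed in their values. RefSeq promoters (GRCm38.p6) covered 14 start sites of 13 Cyp2c genes, and Cyp2c54 and Cyp2c23 had no entry. The 130 bases before the start are shown for 4 members, with matches to CAAAGTCNA, the letters of a motif preferred by HNF4 with its eighth base left free, in capitals. The motif was chosen after the sequences were seen. The intervals are chr19:39992294-39992423 (plus strand) for Cyp2c37, chr19:40089549-40089678 (plus strand) for Cyp2c50, chr19:39812815-39812944 (minus strand) for Cyp2c40 and chr19:39886770-39886899 (minus strand) for Cyp2c69.
Cyp2c37: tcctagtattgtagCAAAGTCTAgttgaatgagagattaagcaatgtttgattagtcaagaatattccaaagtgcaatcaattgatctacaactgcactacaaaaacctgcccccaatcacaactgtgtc
Cyp2c50: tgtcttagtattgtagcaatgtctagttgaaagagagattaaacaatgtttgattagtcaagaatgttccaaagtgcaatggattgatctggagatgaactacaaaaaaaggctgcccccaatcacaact
Cyp2c40: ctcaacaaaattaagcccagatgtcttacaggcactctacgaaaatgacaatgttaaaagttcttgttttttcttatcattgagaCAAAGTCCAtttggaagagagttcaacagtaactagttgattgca
Cyp2c69: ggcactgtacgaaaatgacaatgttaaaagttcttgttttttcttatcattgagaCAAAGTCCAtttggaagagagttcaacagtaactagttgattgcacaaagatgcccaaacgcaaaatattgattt
On both strands, CAAAGTCCA occurred at 6 of the 14 Cyp2c start sites and in 0.475% of 32851 mouse promoters of the same 300 bases, and CAAAGTCNA, which includes it, in 10 of 14 and in 1.041%. The strict form was found in Cyp2c40, Cyp2c65, Cyp2c67, Cyp2c68, Cyp2c69 and Cyp2c70. Cyp2c37, Cyp2c29 and Cyp2c39 had the free form with another eighth base, and Cyp2c50, Cyp2c38, Cyp2c55 and Cyp2c66 had no match. TATAAA was in 10 of 14 Cyp2c promoters and in 13.616% of all, and the STAT5 element TTCNNNGAA in 0 of 14 and in 8.298%. The bases searched ran from 250 before to 50 after the start. Counted from the start, TATAAA began at 40 in Cyp2c40, 10 in Cyp2c69, -162 in Cyp2c65 and -150 in Cyp2c66. Whether the annotated starts mark equivalent places in these genes was not tested. These are matches of letters only.

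The rest of the pathway was followed through lists of genes. Of all genes tested by edgeR's quasi-likelihood test, 0.054% had an adjusted p under 0.05 with higher and 0.0231% with lower values in HFD-KO, and 4.25% and 4.73% had an unadjusted p under 0.05. Among the 191 genes tested from all pathway lists together, 1 passed the adjusted threshold in the higher and 0 in the lower direction, while 26 (13.6%) and 22 (11.5%) had an unadjusted p under 0.05. These lists were chosen with earlier results known, so the shares are a description. The adjusted counts changed when a library was left out, and they rose without either HFD-KO library. In those fits the group reduced to 1 library was assumed to vary like the other group.

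Of 9 genes for electron supply and for the making and breakdown of heme, 2 had a log2 fold change above 0, against 51.6% of all genes. Both HFD-KO libraries were below both HFD-WT libraries for 4 of the 9, against 20.4% of all genes, and Hmox2, Fech and Pgrmc1 were within their SE of 0. Of the 9, 0 passed the adjusted threshold of edgeR's test, and 3 had an unadjusted p under 0.05, all lower, against 4.73% of all genes. Alas1, the first and rate-limiting enzyme of heme synthesis in liver, had 875.9 and 820.4 CPM in HFD-WT against 626.0 and 597.1 CPM in HFD-KO livers (log2 fold change -0.47, adjusted p = 0.223 by edgeR). Por, the electron donor itself, had 422.8 and 410.5 CPM in HFD-WT against 332.4 and 388.3 CPM in HFD-KO livers (log2 fold change -0.21, adjusted p = 0.607 by edgeR). Both genes had their HFD-KO libraries below their HFD-WT libraries. The other 2 were Cyb5r3, the cytochrome b5 reductase (-0.29, unadjusted p = 0.0399 by edgeR) and Hmox1, which breaks heme down (-0.24, unadjusted p = 0.0256 by edgeR).

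Of the epoxide hydrolases, Ephx2 had 958.7 and 871.3 CPM in HFD-WT against 940.8 and 894.2 CPM in HFD-KO livers. The 4 libraries were interleaved, and the log2 fold change was 0.00 (0.00394, SE 0.099). Ephx1, the microsomal hydrolase, had 562.6 and 636.5 CPM in HFD-WT against 567.0 and 446.6 CPM in HFD-KO livers (log2 fold change -0.24, adjusted p = 0.650 by edgeR). Ephx3 and Ephx4 had at most 3 reads in a library.

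The supply of fatty acids and the competing branches gave 0 genes at the adjusted threshold of edgeR's test. Over all genes tested, 4.25% were higher and 4.73% lower with an unadjusted p under 0.05, and 51.6% had a log2 fold change above 0. Among 20 genes for release, synthesis and activation of arachidonic and linoleic acid, 10 had a log2 fold change above and 10 below 0, and only Pla2g7, a secreted phospholipase that acts on platelet-activating factor, had an unadjusted p under 0.05 (log2 fold change -0.52, adjusted p = 0.445 by edgeR). Of 7 other epoxygenases, 6 were above 0, with an unadjusted p under 0.05 for Cyp2j5 alone (399.2 and 394.6 CPM against 473.5 and 443.5 CPM, adjusted p = 0.539 by edgeR). Of 13 omega-hydroxylases, Cyp4a14, Cyp4f14 and Cyp4a31 had an unadjusted p under 0.05, with log2 fold changes of 0.50, 0.33 and 0.68. The value of Cyp4a31 rested on HFD-KO replicate 2: it had 12.6 and 17.3 CPM in HFD-WT against 16.5 and 31.5 CPM in HFD-KO livers, with overlap, and its log2 fold change was 0.15 without that library and 1.08 without HFD-KO replicate 1. In the cyclooxygenase and lipoxygenase branches, 3 of 12 genes did: Ptges, a prostaglandin E synthase, at 6 and 7 against 21 and 35 reads (log2 fold change 2.26), which passed the filter on low counts only through its HFD-KO libraries, Ptgr1, a prostaglandin reductase (-0.74), and Ptgs1, a cyclooxygenase (-0.41).

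Among 30 known regulators of Cyp2c transcription, 0 passed the adjusted threshold of edgeR's test, and 2 had an unadjusted p under 0.05, both lower, against 4.73% of all genes. Nr1i2 (PXR) had 107.7 and 114.2 CPM in HFD-WT against 81.0 and 90.0 CPM in HFD-KO livers (log2 fold change -0.38, unadjusted p = 0.00341, adjusted p = 0.271 by edgeR). The groups were apart. Nr1i3 (CAR) had 398.2 and 365.2 CPM in HFD-WT against 485.0 and 402.9 CPM in HFD-KO livers (log2 fold change 0.22, adjusted p = 0.631 by edgeR), and its HFD-KO replicate 2 was near the HFD-WT libraries. Hnf4a overlapped between the groups (log2 fold change -0.06, adjusted p = 0.908 by edgeR). Onecut1, a liver-enriched homeobox factor, had a log2 fold change of -1.43 that rested on HFD-WT replicate 1, at 34.8 CPM against 5.01 to 11.3 CPM in the other libraries, and it was -0.16 without that library.

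Genes known to respond to CAR and PXR mostly had lower values in HFD-KO livers. Of 26 tested, 20 had a log2 fold change below 0, while 51.6% of all genes were above 0. With an unadjusted p under 0.05, 9 were lower and 1 was higher, against 4.73% and 4.25% of all genes, and 0 passed the adjusted threshold of edgeR's test. Cyp3a11, a main drug-metabolizing enzyme and target of PXR, had 1545 and 1262 CPM in HFD-WT against 690.6 and 831.1 CPM in HFD-KO livers (log2 fold change -0.88, adjusted p = 0.115 by edgeR). Cyp2b10, the classic target of CAR, had 5.35 and 7.96 CPM in HFD-WT against 1.22 and 3.22 CPM in HFD-KO livers (log2 fold change -1.60, adjusted p = 0.329 by edgeR). Cyp2a4, a steroid hydroxylase, had 21.2 and 18.9 CPM against 9.95 and 7.37 CPM (log2 fold change -1.21, adjusted p = 0.0578 by edgeR). In all 3 genes both HFD-KO libraries were below both HFD-WT libraries. The groups overlapped for others of the list, such as Ugt1a1 (log2 fold change 0.02), Ces2a (0.02) and Abcc2 (-0.07). Any part of CAR and PXR in the values of the members was not tested. The single higher gene was Gadd45b, with a log2 fold change of 1.17.

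Sex-biased liver genes were listed because Cyp2c40 and Cyp2c69 are among those of female liver. Of 28 male-predominant genes tested, 17 had a log2 fold change above 0 and 11 below 0, among the latter Mup20 (-0.30) and Mup21 (-0.24), while 51.6% of all genes were above 0. With an unadjusted p under 0.05, 12 were higher and 0 lower, against 4.25% and 4.73% of all genes, and 1 rose at the adjusted threshold of edgeR's test. The one that rose was Slco1a1, an organic anion transporter, with 536 and 493 reads in HFD-WT and 1562 and 1385 reads in HFD-KO livers (log2 fold change 1.69, adjusted p = 0.0013 by edgeR, and 0.0736 without HFD-WT replicate 2). Susd4 (log2 fold change 0.77), Mup11 (1.67) and Serpina1e (2.81) had the next smallest p, with adjusted values of 0.0871, 0.115 and 0.141 by edgeR. The 12 also held Mup7 and Mup12, of the same family as Mup11, and reads shared within that family were not measured. Hsd3b5, another of the 12, stood out in HFD-KO replicate 1, with 0.483 and 0.472 CPM in HFD-WT against 25.8 and 2.51 CPM in HFD-KO livers. Of 18 female-predominant genes, 6 were higher and 4 lower with an unadjusted p under 0.05, against the same shares of all genes, and 0 passed the adjusted threshold. The 6 included Cux2, which was high in HFD-KO replicate 2 alone and overlapped between the groups. Among the lowest p were Cyp2a4, described above, and Ntrk2 (log2 fold change -1.15), while Prlr, the prolactin receptor (0.67), and Slc22a26 (1.35) were on the other side. The female-predominant list thus held values in both directions, and Cux2, Cyp2c40 and Cyp2c69 were highest in the same library.

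Position in the lobule was examined because several abundant Cyp2c enzymes are known from pericentral hepatocytes. Of 17 pericentral genes, 14 had a log2 fold change above 0, against 51.6% of all genes. Both HFD-KO libraries were above both HFD-WT libraries for only 3 of the 17, against 20.5% of all genes. Against 4.25% and 4.73% of all genes, 2 were higher and 0 lower at an unadjusted p under 0.05. These were Tbx3, a transcription factor of the Wnt-responsive zone (36.7 and 35.5 CPM against 54.2 and 54.5 CPM, adjusted p = 0.0693 by edgeR), and Rnf43, a regulator of Wnt receptors (log2 fold change 0.34, adjusted p = 0.546 by edgeR). Of 17 periportal genes, against the same shares of all genes, 0 were higher and 3 lower at an unadjusted p under 0.05: Aldh1b1 (-0.44), Hsd17b13 (-0.43) and Sds (-0.55). The log2 fold change was above 0 for 6 of these 17 and below 0 for 11. Both HFD-KO libraries were below both HFD-WT libraries for 4 of them, against 20.4% of all genes. In neither list did a gene pass the adjusted threshold of edgeR's test.

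**Figure D5:**
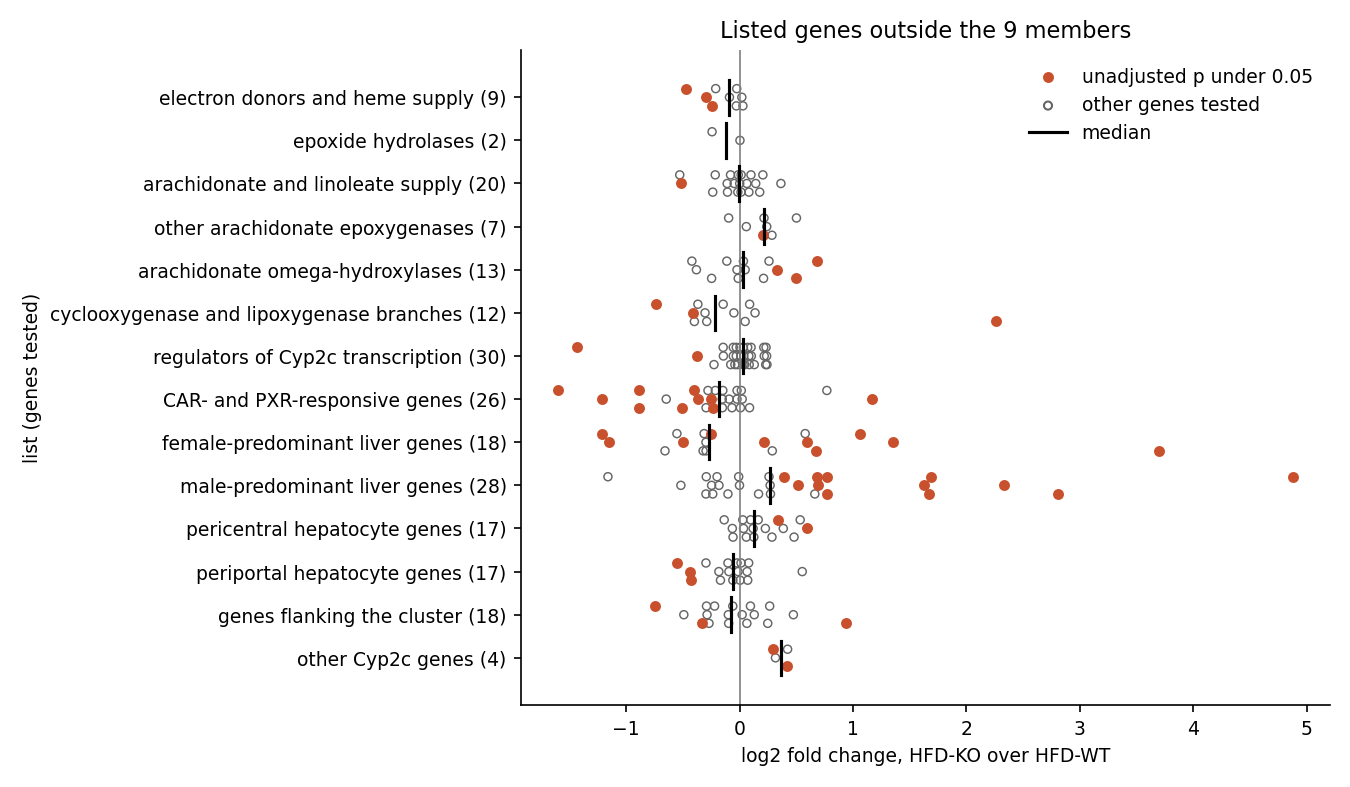
Log2 fold change of HFD-KO over HFD-WT for each listed gene outside the 9 members, by list, with the number of genes tested in parentheses. Filled points have an unadjusted p under 0.05 in edgeR's test and vertical lines are medians. The medians lie between -0.27 for female-predominant genes and 0.37 for the 4 other Cyp2c genes.

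Outside the family, the 5 tested genes whose pattern over the 4 libraries was most like that of Cyp2c54, by the root mean square difference of centred log2 CPM, were Mup9 (0.141), Rasal1 (0.148), Inka1 (0.163), AI467606 (0.164) and Mup19 (0.177). The difference was 0.406 for Cyp2c37 and 0.438 for Cyp2c50, the closest copies of Cyp2c54, which were not picked for likeness. The 5 genes are the nearest of 12967 tested over only 4 libraries, so their smaller differences are a product of the search. Mup9, a major urinary protein gene with near copies of its own, had 73.2 and 53.3 CPM in HFD-WT against 183.1 and 191.8 CPM in HFD-KO livers. Mup9 was lowest in HFD-WT replicate 2 and apart between the groups, which follows from its being picked for likeness to Cyp2c54. Rasal1, Inka1 and AI467606 were below 1 CPM in all 4 libraries, so their patterns rest on few reads.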

How the data were processed

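Liver RNA was sequenced by the authors in 2 HFD-WT and 2 HFD-KO libraries (directional MGI kit, DNBSEQ-G400RS), aligned with the MGI tool and counted in Partek Genomics Suite with GENCODE annotation. Versions, use of strand and the handling of multi-mapping reads are not given in the sources used here. The methods name mm10, while the gene positions in the table are GRCm39. The deposited table holds the authors' whole-number counts, which were tested. The authors' RPKM values served only to derive exon lengths, the authors' TPM values only to check the TPM computed from counts (largest relative difference 0.411%), and the deposited CPM, a score on an adjusted library size, was not used.

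Counts were compared in R 4.3.3 with edgeR 4.0.16 (filterByExpr, TMM, quasi-likelihood test, two-sided, Benjamini-Hochberg adjustment over 12967 genes). CPM used TMM-adjusted library sizes. The SE of a log2 fold change was its absolute value divided by the square root of the F statistic of the quasi-likelihood test. The common biological coefficient of variation was 0.102. DESeq2 1.42.0 was an alternative. Replicates differed beyond counting error (chi-square per degree of freedom 10.3 for HFD-WT and 41 for HFD-KO).

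The members and gene lists were chosen with earlier results of these data known. Named genes were the members, the other Cyp2c genes with reads, 8 genes named in advance (Ephx1, Ephx2, Por, Nr1i3, Nr1i2, Hnf4a, Cyp2b10 and Cyp3a11), up to 4 genes of each list with the smallest unadjusted p under 0.05, and the 5 genes most like Cyp2c54. Cux2 and Ffar4 in the account of single libraries were chosen after their values were seen. Some results are not reported here. Sequences came from RefSeq promoters (GRCm38.p6) and GENCODE M21 transcripts, and coding sequences were aligned in pairs with Biopython 1.88.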

Additional observations from a re-analysis of the deposited data

How the results depend on the processing

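Over the normalizations, the filter, DESeq2's Wald test, the replicate block and leaving out each library, the median log2 fold change of the members stayed between 0.403 and 0.713. The log2 ratio of their summed level was recomputed with DESeq2's size factors, with library size alone, on the CPM scale and without each library, and lay between 0.387 and 0.636. In all, 462 of 611 values under alternatives were classed as the same. For tested genes this meant the same direction and side of the threshold, and without a test a shift smaller than the spread of replicates. For counts it meant a value within a fixed ratio of the main count, so that 613 and 894 lower genes were classed as the same. Among the 611, 10 changed sign: Cyp2c38 (-0.0114 with library size alone, and -0.0238 to 0.0917 with each library left out), Cyp2c55 (0.0106 without HFD-WT replicate 2, otherwise down to -0.693), Cyp2c70 (-0.0842 without HFD-KO replicate 2, otherwise up to 0.80), Ephx2 (-0.0416 with library size alone, -0.000732 with no filter and -0.0616 to 0.0684 with each library left out) and Hnf4a (0.0505 without HFD-KO replicate 1, otherwise down to -0.168). On the CPM scale, not per length, Cyp2c29 led Cyp2c50 and Cyp2c38 led Cyp2c54.

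Counts of calls depended on the settings. By adjusted p, the main comparison gave 7 higher and 3 lower genes, 81 and 81 with no filter on low counts, 55 and 60 with DESeq2, and 4 higher with library size alone. At an unadjusted p under 0.05 there were 551 higher and 613 lower genes, 298 and 373 with DESeq2, and 346 and 894 with library size alone, where the median of all genes was -0.0391. Leaving out each library in turn gave 0 to 376 higher and 0 to 329 lower genes by adjusted p, the 0 without HFD-WT replicate 2, and 255 to 1095 higher and 207 to 1078 lower by unadjusted p. A group reduced to 1 library was assumed to vary like the other group. The cause of these shifts was not tested.

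For the listed pathway genes, the 1 higher and 0 lower by adjusted p became 12 and 6 with no filter, 9 and 7 with DESeq2, and 0 to 30 and 0 to 17 with each library left out, and the 26 and 22 by unadjusted p became 21 to 44 and 13 to 38. For the other Cyp2c genes and the genes flanking the cluster, the 0 higher by adjusted p became 2 with no filter and 1 with DESeq2, and 0 to 4 higher and 0 to 2 lower with each library left out. By unadjusted p their 3 higher became 5 with no filter, and 1 to 5 higher and 1 to 5 lower with each library left out.

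The libraries share replicate numbers across genotypes, but no source describes a pairing. Across 12967 genes the differences between replicates 1 and 2 of the 2 genotypes had r = -0.0764. With the replicate number as a block, 12 genes were higher and 8 lower by adjusted p, and 5 and 1 of the listed genes. Cyp2c40, Cyp2c69 and Cyp2c55, with 1 to 202 reads per library, are limited by depth as well as by the 2 libraries per group.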

Other observations

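Outside the CYP2C family, 56 other cytochrome P450 genes were tested by edgeR's quasi-likelihood test, with 0 at an adjusted p under 0.05 and a median log2 fold change of 0.04. At an unadjusted p under 0.05, 8 were higher and 6 lower, against 4.25% and 4.73% of all genes. Examples, chosen after their values were seen, were Cyp7b1, the oxysterol hydroxylase of the alternative bile acid pathway, with 43.5 and 43.4 CPM in HFD-WT against 86.8 and 53.4 CPM in HFD-KO livers, and Cyp17a1, a steroid hydroxylase, with 48.4 and 45.1 CPM against 60.5 and 134.1 CPM. Cyp2a22 had lower values in both HFD-KO libraries (log2 fold change -0.66, adjusted p = 0.210 by edgeR). As in Cyp2c40 and Cyp2c69, the highest value of Cyp17a1 was in HFD-KO replicate 2.

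The genes outside the family with a pattern most like that of Cyp2c40 were looked up after its values were seen. They were Mab21l3 (root mean square difference of centred log2 CPM 0.417), Igfbp1 (0.514), Igha (0.526), Derl3 (0.540) and Ankrd37 (0.569). All 5 were highest in HFD-KO replicate 2, which follows from this choice, since Cyp2c40 was highest in that library. The difference was 1.12 for Cyp2c69 and 1.45 for Cyp2c67, which were not picked for likeness. Cyp2c69 was also highest in HFD-KO replicate 2, and its difference rests in part on its 1 and 3 reads in HFD-WT. Igfbp1, which encodes a binding protein of insulin-like growth factors, had 48.3 and 68.8 CPM in HFD-WT against 93.5 and 292.7 CPM in HFD-KO livers.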
